A study of Mus musculus with 8 samples.

Results

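Kidney RNA of wild-type C57BL/6 mice given flavopiridol was compared with kidney RNA of wild-type C57BL/6 mice given the vehicle DMSO. The libraries were chosen by label, 2 labelled WT_FP and 2 labelled WT_DMSO, which made 4 of the 8 libraries of the study. The other 4 came from polycystic kidneys (PKD, autosomal dominant disease) of the same strain, 2 with each treatment, and the study concerned activation of P-TEFb by cAMP and protein kinase A in that disease. All libraries were oligo(dT)-selected RNA of whole kidney. Labels read FP for the drug, which the series design names as flavopiridol, with no dose, route or length of treatment. The age of the mice, and the disease allele of the polycystic kidneys, were not stated in the sources read. Nor do the labels say that replicates were separate animals, so p-values reflect no more than library-to-library spread, which may be technical. All 4 wild-type libraries had the male pattern of sex-linked transcripts, with Ddx3y, a Y-linked RNA helicase gene, between 13.7 and 20.9 FPKM and Xist, the X-inactivation RNA, at most 0.13 FPKM. FPKM scales fragment counts by transcript length and library size, so levels can be set side by side between genes.

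Flavopiridol inhibits cyclin-dependent kinases, among them CDK9, the catalytic subunit of P-TEFb. With cyclin T, CDK9 phosphorylates RNA polymerase II and its pausing factors and so releases paused polymerase into elongation, while the 7SK RNA, HEXIM and LARP7 hold part of P-TEFb in an inactive complex. Transcripts with short half-lives, such as those of immediate-early genes, MYC and MCL1, are known to be among the first to drop when CDK9 is blocked. In healthy adult kidney most tubule cells are quiescent, and few resident cells express mitotic genes or MHC class II.

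The wild-type libraries did not group by treatment. A total of 13559 genes had 1 FPKM or more in at least 2 of the 4 libraries, and across them the median absolute difference on the log2(FPKM + 1) scale was 0.30 between the vehicle replicates and 0.249 between the flavopiridol replicates. Of the 4 pairs that crossed treatments, 3 lay closer together, at 0.165 for vehicle replicate 1 with flavopiridol replicate 2, 0.166 for vehicle replicate 2 with flavopiridol replicate 1, and 0.211 for replicates 1 of both. The pair of vehicle replicate 2 with flavopiridol replicate 2 was the widest apart, at 0.375. A 2-fold or larger difference separated 1201 genes (8.86%) in that pair, 756 (5.58%) in the vehicle pair, 717 (5.29%) in the flavopiridol pair and 203 (1.497%) in vehicle replicate 2 with flavopiridol replicate 1. The difference between replicates was thus as large as most differences between treatments. Read depth is unknown, but entries for short RNAs move in steps of 1 read, and these steps placed the 4 libraries between 0.993 and 1.17 times the depth of vehicle replicate 1.

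**Figure D1:**
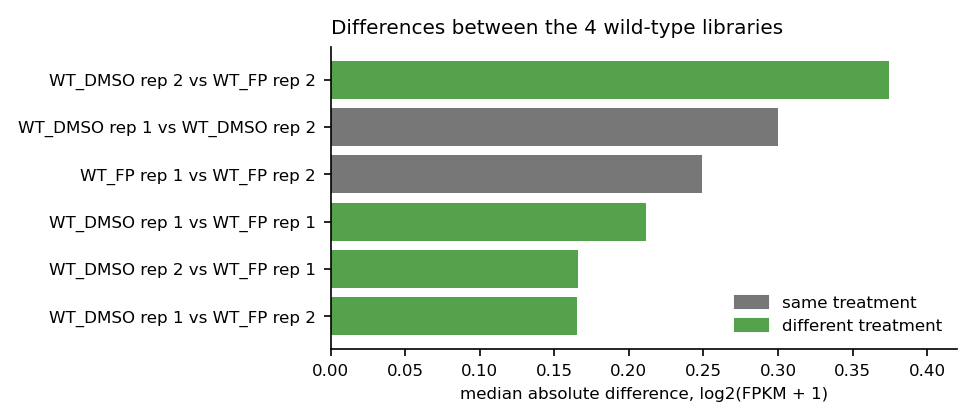
Bars give, for each pair of wild-type libraries, the median absolute difference over genes on the log2(FPKM + 1) scale, with grey for pairs of the same treatment and green for pairs of different treatments. The same-treatment pairs, at 0.30 and 0.249, lie above 3 of the 4 pairs that cross treatments.

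No gene passed the test for a difference between flavopiridol and vehicle. limma, fitted to all 8 libraries on log2(FPKM + 1), called 0 genes higher (0%) and 0 lower (0%) at a Benjamini-Hochberg adjusted p under 0.05, and the smallest adjusted p was 0.279. At an unadjusted p under 0.05 there were 127 genes with higher values under flavopiridol (0.937%) and 51 with lower values (0.376%), together 178 of 13559 (1.31%). If no gene differed between treatments, 5% would be expected at that threshold. The median log2 fold change over all genes was 0.09 and the median standard error (SE) 0.22. For 10852 genes (80.0%), the unadjusted 95% interval of the change in FPKM + 1 lay within 2-fold in both directions. Adding 1 understates the folds of low genes, so for these the interval does not bound the change in FPKM itself. A change of 1 or more on the log2 scale was estimated for 72 genes in the direction of flavopiridol and 33 in the direction of vehicle. A single value compared over 2 against 2 libraries cannot reach a two-sided exact permutation p below 0.333. Without the filter on low values, limma called 1 entry higher and 2 lower, all of them short RNA entries at the level of single reads, described further on.

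Groups were also described by whether both flavopiridol values lay above, or both below, both vehicle values. Of the 13559 genes, 2233 (16.5%) did not overlap with flavopiridol higher and 714 (5.27%) did not overlap with flavopiridol lower. These shares are the background against which the counts of members in each gene list are read. They depend on how the libraries are scaled. Median-of-ratios scaling moved the median of all genes from 0.09 to −0.02 and the shares to 9.57% higher and 9.98% lower, and quantile normalization gave 10.2% and 8.72%. The genes at unadjusted p under 0.05 then split into 94 higher and 107 lower, and 97 higher and 111 lower. Below, values in FPKM are given in the order vehicle replicates 1 and 2, then flavopiridol replicates 1 and 2.

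The smallest p outside the short RNA entries belonged to Gsta1, which encodes an alpha-class glutathione S-transferase (GRCm38 chromosome 9, 78230669 to 78242683). Its values were 4.25 and 2.73 FPKM under vehicle and 12.9 and 15.5 FPKM under flavopiridol. The estimated log2 fold change was 1.77 ± 0.26 (SE, n = 2 against 2; limma, adjusted p = 0.607). Reads of Gsta1 can be shared with its close copy Gsta2, which stood at 483, 546, 540 and 274 FPKM, and the sum of both genes overlapped between treatments.

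Lcn2, encoding the secreted iron-siderophore carrier and tubule injury marker NGAL (chromosome 2, 32384637 to 32387739), had 9.06 and 6.44 FPKM under vehicle against 18.0 and 19.3 FPKM. The estimate was 1.18 ± 0.32 with an unadjusted 95% interval of 0.42 to 1.94. Both drug libraries were above both vehicle libraries, but the rule that named these genes required that the treatments not overlap. Ccl5, a chemokine gene typical of T and NK cells (chromosome 11, 83525778 to 83530518), had 2.93 and 3.81 FPKM under vehicle against 0.59 and 0.90 FPKM. Ccl5 passed the filter on low values only through the vehicle libraries, so its estimate is not read as a difference. Dio1, encoding the type 1 deiodinase that activates thyroid hormone, went from 73.1 and 91.9 FPKM to 49.8 and 40.1 FPKM (−0.86 ± 0.26). Glo1, encoding the methylglyoxal-detoxifying enzyme glyoxalase 1, stood at 128 and 153 FPKM against 101 and 88.3 FPKM (−0.56 ± 0.18).

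Other genes named by smallest p among those that did not overlap included, on the higher side, the carbonic anhydrase gene Car9 (3.78, 3.55, 7.59 and 5.41 FPKM) and the EGF-receptor ligand gene Btc (3.86, 4.45, 6.16 and 9.87 FPKM). Aoc1, encoding diamine oxidase, had 3.64, 2.73, 5.5 and 9.21 FPKM, and the zinc finger gene Zfp868 had 5.70, 4.99, 12.9 and 17.6 FPKM. On the lower side, Tmem221 had 6.30, 5.39, 2.64 and 2.36 FPKM, and Spns3, of a lipid transporter family, had 5.97, 4.64, 2.22 and 2.30 FPKM. The mitochondrial complex I assembly gene Tmem126a had 56.5, 59.95, 44.3 and 41.0 FPKM, the narrowest estimate of the lower set at −0.44 ± 0.13. The estimates of the 28 genes drawn in the plot of estimates ran from −2.56 (Sprr2a1) to 1.77 (Gsta1), and their adjusted p from limma was 0.607 or more.

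**Figure D2:**
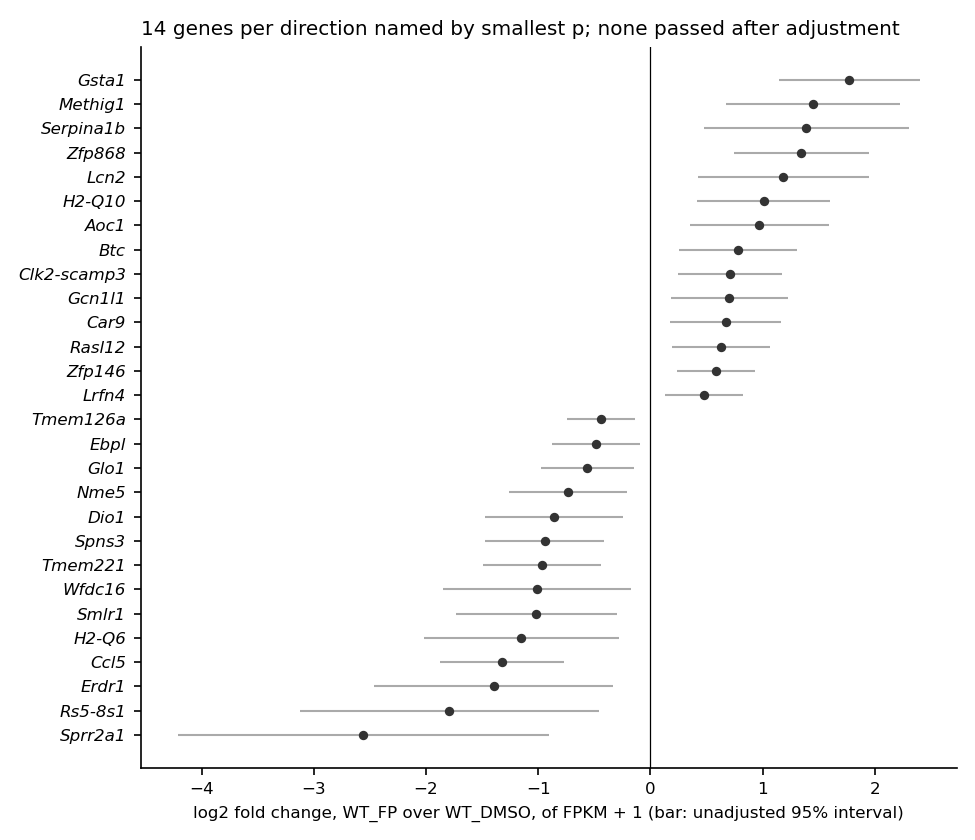
Points give the estimated log2 fold change of FPKM + 1, flavopiridol over vehicle, for 14 genes per direction named by smallest p, and bars give the unadjusted 95% interval. Estimates run from −2.56 for Sprr2a1 to 1.77 for Gsta1, and none of the 28 passed after adjustment. Ccl5 passed the filter on low values only through the vehicle libraries, so its estimate is not read as a difference.

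Several of these genes have near-identical copies between which reads may be split differently in different libraries. Sprr2a1, a cornified-envelope gene, had 12.6, 7.85, 2.45 and 0 FPKM, while its copy Sprr2a2 had 0, 0, 2.45 and 23.8 FPKM, and the sum of the Sprr2a copies overlapped between treatments. For Methig1, the sum with its Mettl7a relatives also overlapped. The nonclassical MHC class I genes H2-Q6 to H2-Q9 kept a difference in the sum, with 43.4 and 46.2 FPKM under vehicle and 26.6 and 25.9 FPKM under flavopiridol. Serpina1a to Serpina1e, the alpha-1-antitrypsin copies, summed to 110.1 and 216 FPKM under vehicle and 265 and 233 FPKM under flavopiridol.

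No gene of P-TEFb, the direct target, or of the pausing machinery passed the test, and none of the 31 listed reached an unadjusted p of 0.05. Cdk9 (chromosome 2, 32705782 to 32712784) had 25.2 and 19.1 FPKM under vehicle and 22.2 and 26.1 FPKM under flavopiridol, an estimate of 0.13 ± 0.19 with an interval of −0.33 to 0.58. The cyclin partner genes overlapped as well, with Ccnt1 at 7.63, 4.39, 4.24 and 9.57 FPKM and Ccnt2 at 13.0, 7.24, 12.5 and 13.0 FPKM. Hexim1, whose product inhibits P-TEFb in the 7SK complex, had 37.6, 37.8, 35.5 and 37.7 FPKM (−0.04 ± 0.16, interval −0.43 to 0.34). Larp7, the 7SK-binding partner, had 32.0, 22.1, 21.9 and 29.5 FPKM. For Ccnt1 and Larp7, vehicle replicate 1 and flavopiridol replicate 2 were the high libraries and the other two the low ones, the same split as in the distances between libraries. Rn7sk, the 7SK RNA itself, was read at 3.51, 29.8, 2.59 and 3.06 FPKM, high in vehicle replicate 2 alone, where the ribosomal RNA entries Rn28s1 (32.8 FPKM against 0.14 to 2.04) and Rn18s (45.3 FPKM against 5.95 to 9.58) were also high.

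Among the 31 genes, 7 did not overlap with flavopiridol higher and 2 with flavopiridol lower, where 16.5% and 5.27% of all genes did. The list's median log2 fold change was 0.11 against 0.09 for all genes. Aff1, a scaffold of the super elongation complex, had 9.42, 9.95, 11.0 and 14.3 FPKM (0.34 ± 0.17), and Eaf2, an ELL-associated factor, had 15.7, 15.01, 11.4 and 13.5 FPKM (−0.29 ± 0.14). After median-of-ratios scaling the counts were 2 higher and 3 lower, where 9.57% and 9.98% of all genes were, and the median −0.00. After quantile normalization they were 2 higher and 4 lower, where 10.2% and 8.72% of all genes were, and the median 0.00. The balance of the counts thus moved with the scaling, as did the shares over all genes. The 13 RNA polymerase II subunit genes had a median of 0.00, with 1 of them not overlapping, the subunit gene Polr2i at 66.2, 60.2, 58.8 and 59.7 FPKM. After median-of-ratios scaling 5 of the 13 did not overlap with flavopiridol lower, and after quantile normalization 1, where 9.98% and 8.72% of all genes did.

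The sequence before the Cdk9 start is shown because it holds the hairpin of Mir3960, an entry that was read under flavopiridol and not under vehicle. It covers chr2:32712735-32713034 on the minus strand (RefSeq, GRCm38.p6), 250 bases before to 50 bases after the annotated start, and the capitals mark the hairpin.
Cdk9 start region: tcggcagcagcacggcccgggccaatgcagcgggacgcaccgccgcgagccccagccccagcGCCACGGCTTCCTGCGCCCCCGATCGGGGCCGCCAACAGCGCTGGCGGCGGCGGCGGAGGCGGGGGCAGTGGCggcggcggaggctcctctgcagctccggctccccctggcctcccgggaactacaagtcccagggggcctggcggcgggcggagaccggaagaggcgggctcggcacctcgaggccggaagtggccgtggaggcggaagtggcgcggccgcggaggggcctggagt
Mir3960 was listed at 0 and 0 FPKM under vehicle and 3.5 and 3.81 FPKM under flavopiridol, which is 2 reads' worth in each drug library. In the polycystic kidneys it was listed under both treatments, at 1.52 and 4.41 FPKM with vehicle and 1.53 and 3.44 FPKM with flavopiridol. The wild-type difference thus rested on 2 reads' worth in each drug library, and it did not pass the test after adjustment.

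Short-lived transcripts known to drop under CDK9 inhibition showed no shared decrease under flavopiridol. Mcl1, encoding a survival protein of the BCL2 family, had 52.7 and 42.9 FPKM under vehicle and 51.2 and 53.7 FPKM under flavopiridol (0.14 ± 0.15, interval −0.22 to 0.50). Myc had 4.66 and 3.23 FPKM against 4.87 and 6.30 FPKM, an estimate of 0.42 ± 0.21 whose interval, −0.07 to 0.91, did not reach a 2-fold decrease. The growth-factor-induced transcription factor genes Fos (0.73, 0.80, 0.65 and 1.08 FPKM), Junb (13.5, 15.2, 14.8 and 26.7 FPKM) and Egr1 (3.64, 4.40, 2.59 and 7.24 FPKM) were in each case highest in flavopiridol replicate 2.

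Of 41 immediate-early genes, 31 were tested and none reached an unadjusted p of 0.05. Among all 41, 6 did not overlap with flavopiridol higher and 1 with flavopiridol lower, where the background over the 19492 entries above 0 in any wild-type library was 15.9% and 5.65%. The median of the tested members was 0.30, but −0.03 without vehicle replicate 2 and 0.05 without flavopiridol replicate 2. Summed, these genes stood at 1160 FPKM in vehicle replicate 1, 636 in vehicle replicate 2, 923 in flavopiridol replicate 1 and 1082 in flavopiridol replicate 2. Of 19 BCL2 family and apoptosis inhibitor genes, 6 did not overlap with flavopiridol higher, beside 15.9% of entries, and none with flavopiridol lower. They included the pore-forming effector genes Bak1 (9.67, 10.6, 14.7 and 12.8 FPKM) and Bax (87.9, 70.6, 89.5 and 93.6 FPKM), and the caspase inhibitor gene Xiap (14.8, 12.1, 14.8 and 17.7 FPKM). Among the 18 tested the counts were 3 higher and 2 lower after median-of-ratios scaling, where 9.57% and 9.98% of all genes were. After quantile normalization they were 1 higher and 0 lower, where 10.2% and 8.72% of all genes were.

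MHC class II genes were lower in both flavopiridol libraries than in both vehicle libraries, without passing the test. Class II molecules present peptides to CD4 T cells and are made by dendritic cells, B cells and part of the macrophages. H2-Aa, the alpha chain of I-A (chromosome 17, 34282744 to 34287823), had 67.4 and 51.6 FPKM under vehicle and 39.4 and 29.2 FPKM under flavopiridol (−0.78 ± 0.29). H2-Ab1, the matching beta chain, had 64.1 and 53.4 FPKM against 41.9 and 25.9 FPKM (−0.81 ± 0.32). H2-Eb1, the beta chain of I-E, had 38.2 and 29.9 FPKM against 23.2 and 15.7 FPKM (−0.79 ± 0.30). Cd74, the invariant chain that chaperones class II, had 159 and 118 FPKM against 99.6 and 74.0 FPKM (−0.67 ± 0.30). For each of these 4 genes the order of the libraries was the same, with flavopiridol replicate 2 lowest.

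The peptide-loading genes differed less, with H2-DMa at 4.95, 5.90, 4.49 and 3.56 FPKM and H2-DMb1, whose treatments overlapped, at 14.1, 17.1, 16.1 and 8.21 FPKM. Ciita, encoding the class II transactivator, was listed at 0.46, 0.32, 0.27 and 0.22 FPKM, under the filter. In all, 6 of the 7 listed genes did not overlap with flavopiridol lower, beside 5.65% of all entries, and H2-Aa, H2-Ab1 and H2-Eb1 reached an unadjusted p under 0.05. The median of the 6 tested genes was −0.72, and −0.47 without flavopiridol replicate 2. Leaving out any other library gave −0.56 to −0.94, and scaling gave −0.84 and −0.70. In the polycystic kidneys H2-Aa had 82.2 and 144 FPKM with vehicle and 75.8 and 71.6 FPKM with flavopiridol, and the difference between the genotypes' responses was −0.22 ± 0.42 (limma, adjusted p = 0.882).

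Class II promoters carry a conserved set of elements, of which the X box binds the RFX complex and the Y box binds NF-Y, and these recruit CIITA. Start regions of 3 of the genes are shown to let those elements be seen in members that moved in the same direction and in 1 whose treatments overlapped. Each runs from 250 bases before to 50 bases after the start (RefSeq, GRCm38.p6), and capitals mark matches on either strand to the Y box core TGATTGG and to the X box core CTAGNAA.
H2-Aa, chr17:34287774-34288073, minus strand: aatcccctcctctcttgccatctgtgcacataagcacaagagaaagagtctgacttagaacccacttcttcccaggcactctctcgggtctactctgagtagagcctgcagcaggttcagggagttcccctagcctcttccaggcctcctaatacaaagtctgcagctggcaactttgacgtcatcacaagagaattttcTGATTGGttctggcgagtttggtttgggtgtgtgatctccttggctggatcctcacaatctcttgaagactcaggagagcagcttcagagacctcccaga
H2-Eb1, chr17:34305617-34305916, plus strand: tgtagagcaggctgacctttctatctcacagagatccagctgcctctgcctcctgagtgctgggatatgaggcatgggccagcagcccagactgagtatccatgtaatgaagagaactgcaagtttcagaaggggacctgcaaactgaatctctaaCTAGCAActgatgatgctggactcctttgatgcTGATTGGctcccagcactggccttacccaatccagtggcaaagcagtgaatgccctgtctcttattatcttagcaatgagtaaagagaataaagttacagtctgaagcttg
H2-DMb1, chr17:34152941-34153240, plus strand: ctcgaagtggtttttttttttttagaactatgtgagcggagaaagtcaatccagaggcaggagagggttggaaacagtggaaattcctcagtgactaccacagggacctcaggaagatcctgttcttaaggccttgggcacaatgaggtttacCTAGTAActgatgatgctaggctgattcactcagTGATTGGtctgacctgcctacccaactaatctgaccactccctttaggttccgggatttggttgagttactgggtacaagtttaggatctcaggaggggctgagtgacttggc
The Y box core was found in all 3, and in 2568 of 32851 RefSeq start regions of this length (7.82%). The X box core was found in H2-Eb1 and H2-DMb1, and in 4210 of the 32851 regions (12.8%). Where both were present they did not overlap each other, and 334 regions held both. The absence of the X box letters from the H2-Aa window says only that these letters are not there.

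Transcripts of lymphocytes were sparse and in part lower under flavopiridol. Of 17 listed markers, 15 were matched and 3 passed the filter, and 8 of the 15 did not overlap with flavopiridol lower, beside 5.65% of entries. Nkg7, a cytotoxic granule gene, had 0.98 and 1.29 FPKM under vehicle and 0.25 and 0.09 FPKM under flavopiridol. The T cell kinase gene Lck had 1.36 and 1.04 FPKM against 0.34 and 0.82 FPKM, and the B cell receptor gene Cd79b had 1.31 and 0.97 FPKM against 0.39 and 0.57 FPKM. Others overlapped, such as Cd3e (0.30, 0.42, 0.41 and 0.20 FPKM) and Cd8a (1.15, 1.62, 2.05 and 1.14 FPKM). Summed, the 15 markers stood at 10.1 and 10.5 FPKM under vehicle and 7.06 and 6.19 FPKM under flavopiridol. Most values of single markers were near or under 1 FPKM, and the number of reads behind them is not known. In whole kidney, fewer cells of a type and less RNA per cell cannot be told apart.

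Macrophage markers did not share that direction. Of 20 listed genes, 5 did not overlap with flavopiridol higher and 1, Itgax, with flavopiridol lower, beside 15.9% and 5.65% of entries. The lysozyme gene Lyz2 had 18.4 and 9.5 FPKM under vehicle and 24.4 and 31.3 FPKM under flavopiridol (1.01 ± 0.40), and the CSF1 receptor gene Csf1r had 13.3, 13.4, 14.7 and 19.7 FPKM. The complement gene C1qa had 29.4, 17.6, 28.1 and 27.0 FPKM, low in vehicle replicate 2 alone. Without vehicle replicate 2 the list's median moved from 0.22 to −0.10. Among 26 chemokine and cytokine genes, 4 did not overlap with flavopiridol lower and 2 with flavopiridol higher, beside 5.65% and 15.9% of entries. The 4 lower genes were Ccl5, Ccl6 (3.16, 2.87, 2.47 and 1.79 FPKM), and, under 1 FPKM in all 4 libraries, Ccl4 and Il10.

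**Figure D3:**
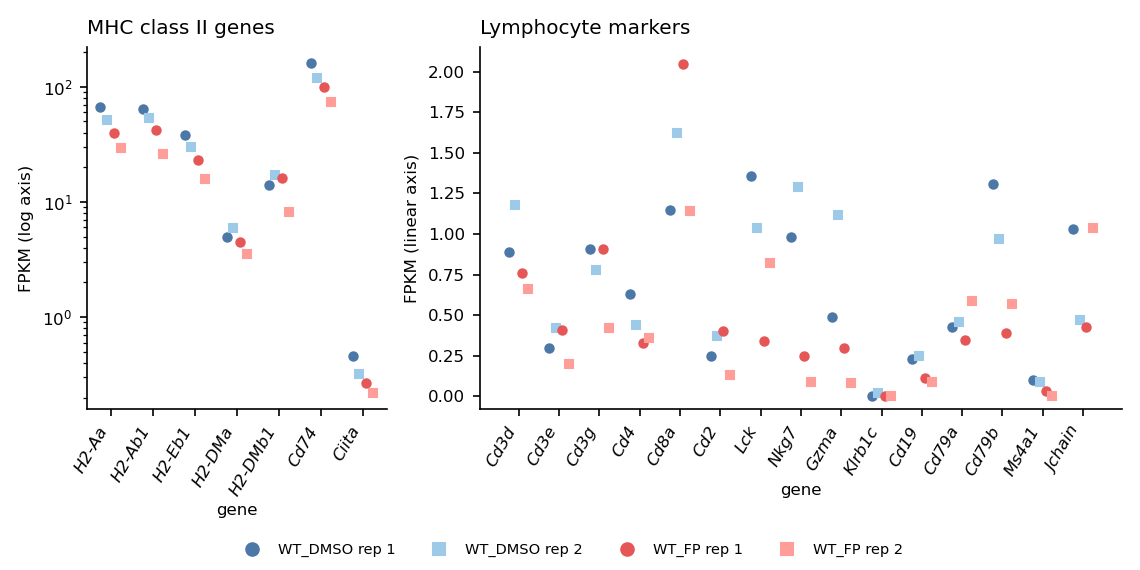
Points give FPKM on a log axis in each of the 4 wild-type libraries (blue, vehicle; red, flavopiridol; circles, replicate 1; squares, replicate 2) for the 7 MHC class II genes, and FPKM on a linear axis for the 15 matched lymphocyte markers. Both flavopiridol values lie below both vehicle values for 6 of the 7 class II genes and 8 of the 15 lymphocyte markers, and most lymphocyte values are near or under 1 FPKM.

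Mitotic and replication genes were at low levels and in part higher under flavopiridol, without passing the test. Of 34 listed genes, 18 did not overlap with flavopiridol higher and 0 with flavopiridol lower, beside 15.9% and 5.65% of entries, and 30 passed the filter. Mki67, the proliferation marker Ki-67 (chromosome 7, 135689784 to 135716450), had 3.70 and 4.05 FPKM under vehicle and 6.06 and 5.39 FPKM under flavopiridol (0.46 ± 0.17). The spindle assembly gene Tpx2 had 2.04 and 2.13 FPKM against 3.63 and 2.83 FPKM (0.45 ± 0.19), and the mitotic kinase gene Plk1 had 2.76 and 2.71 FPKM against 4.25 and 3.67 FPKM. These 3 genes reached an unadjusted p under 0.05. Kif23, a cytokinesis motor gene, had 6.24, 5.14, 6.85 and 18.0 FPKM, with the difference mostly in flavopiridol replicate 2 (0.87 ± 0.42). Others overlapped, such as Pcna (45.9, 52.9, 51.5 and 43.6 FPKM) and Mcm6 (7.52, 11.1, 9.46 and 8.42 FPKM), both of DNA replication.

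The median of the 30 tested genes was 0.29 against 0.09 for all genes, and 0.24 to 0.31 with any 1 wild-type library left out. After median-of-ratios scaling 13 of the 30 did not overlap with flavopiridol higher, where 9.57% of all genes did, and after quantile normalization 7, where 10.2% did. In the polycystic kidneys Mki67 had 4.83 and 5.47 FPKM with vehicle and 11.5 and 9.42 FPKM with flavopiridol. The difference between the responses of the genotypes was −0.43 ± 0.24 for Mki67 (limma, adjusted p = 0.546).

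No gene of a cyclin-dependent kinase reached an unadjusted p of 0.05. Cdk2, the S-phase kinase, had 8.43, 7.84, 9.33 and 10.2 FPKM, and the mitotic kinase gene Cdk1 had 3.06, 3.94, 5.16 and 3.75 FPKM. The G1 kinase genes Cdk4 (74.8, 69.6, 81.2 and 70.8 FPKM) and Cdk6 (3.41, 2.44, 2.78 and 3.94 FPKM) overlapped, as did Cdk7, the kinase of TFIIH (7.31, 5.6, 6.25 and 7.07 FPKM). Ccnd1, the cyclin D1 gene, had 69.5, 92.1, 99.2 and 99.4 FPKM. Cdkn1a, which encodes the CDK inhibitor p21 and is a p53 target, had 8.14 and 5.42 FPKM under vehicle and 10.03 and 19.4 FPKM under flavopiridol (0.97 ± 0.33, interval 0.19 to 1.75). In the cell cycle list 10 of 24 genes did not overlap with flavopiridol higher and 2 with flavopiridol lower, beside 15.9% and 5.65% of entries. Among the 23 tested genes the counts were 3 higher and 2 lower after median-of-ratios scaling, and 4 higher and 1 lower after quantile normalization. Over all genes the shares were then 9.57% higher and 9.98% lower, and 10.2% higher and 8.72% lower. Among 24 p53 targets the count was 6 higher and 0 lower as deposited. For the 23 tested p53 targets it was 5 higher and 0 lower after median-of-ratios scaling, and 3 higher and 0 lower after quantile normalization. The p53 target Gdf15, a stress-induced cytokine gene, had 7.65, 11.5, 12.0 and 15.7 FPKM.

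Of 19 tubule injury genes, 6 did not overlap with flavopiridol higher and none with flavopiridol lower, beside 15.9% and 5.65% of entries. Among the 14 tested, 2 were higher and 0 lower after median-of-ratios scaling, where 9.57% of all genes were higher. After quantile normalization the counts were also 2 and 0, where 10.2% of all genes were higher. Beside Lcn2, the metalloproteinase inhibitor gene Timp1 had 0.80 and 0.75 FPKM under vehicle and 4.57 and 1.85 FPKM under flavopiridol, and passed the filter on low values only through the flavopiridol libraries. Havcr1, which encodes the proximal injury marker KIM-1, was listed at 0.26 and 0.27 FPKM against 5.14 and 0.56 FPKM, high in flavopiridol replicate 1 alone. The fibrinogen gamma gene Fgg was also highest in that library, at 1.20, 3.04, 6.27 and 1.3 FPKM. The abundant injury-associated gene Spp1, encoding osteopontin, overlapped at 1304, 1313, 1681 and 1115 FPKM.

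Proximal tubule markers stood apart in flavopiridol replicate 2 rather than between treatments. The 25 genes summed to 10355 and 14131 FPKM under vehicle and 13796 and 6539 FPKM under flavopiridol. Fbp1, a gluconeogenic enzyme gene, had 121, 483, 324 and 69.7 FPKM, and the sodium-phosphate cotransporter gene Slc34a1 had 1310, 1879, 1666 and 769 FPKM. The list's median was −0.45, with 22 of 25 estimates below 0, but 0.12 without flavopiridol replicate 2. Aadat, encoding a kynurenine aminotransferase, was among 3 members that did not overlap, at 288 and 407 FPKM against 229 and 240 FPKM (−0.55 ± 0.26). Over all genes, 5.27% did not overlap with flavopiridol lower.

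Further along the nephron, Slc12a1, the furosemide-sensitive cotransporter gene of the thick limb, had 336 and 242 FPKM under vehicle and 365 and 452 FPKM under flavopiridol (0.51 ± 0.26). Ptger3, the prostaglandin E receptor EP3 gene of the same segment, had 27.8 and 23.0 FPKM against 35.7 and 52.7 FPKM (0.75 ± 0.29). S100g, encoding the calcium-binding protein calbindin-D9k, stood lower, at 3486 and 3181 FPKM against 2695 and 2811 FPKM. Of the 18 thick limb and distal tubule markers, 4 did not overlap with flavopiridol higher (all genes, 16.5%) and 2 with flavopiridol lower (all genes, 5.27%). For this list 6 estimates were below 0, and the median was 0.11 against 0.09 for all genes. Principal cell markers were high in flavopiridol replicate 2, with the water channel gene Aqp2 at 799, 536, 386 and 1344 FPKM, and their median turned from 0.17 to −0.35 without that library. In podocytes, the slit diaphragm gene Nphs1 had 7.95, 6.12, 10.4 and 8.02 FPKM, and 5 of the 12 podocyte genes did not overlap with flavopiridol higher and 0 with flavopiridol lower, where 16.5% and 5.27% of all genes did. These counts were 2 higher and 1 lower after median-of-ratios scaling, where 9.57% and 9.98% of all genes were. After quantile normalization they were 1 higher and 1 lower, where 10.2% and 8.72% of all genes were.

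Kap, an androgen-regulated transcript of proximal tubule that was among the most abundant in these kidneys (chromosome 6, 133849855 to 133853667), had 26699.6 and 25855.6 FPKM under vehicle and 15475.2 and 19670.0 FPKM under flavopiridol. The estimate was −0.59 ± 0.38 with an interval of −1.49 to 0.31. Of the other 5 androgen-responsive genes, the lysosomal glucuronidase gene Gusb also did not overlap, at 7.94, 9.04, 7.79 and 7.1 FPKM. Overlapping genes included Odc1, the ornithine decarboxylase gene, at 66.5, 139, 81.8 and 51.8 FPKM and Cyp2e1 at 56.7, 169, 175 and 102 FPKM.

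Chaperones of the endoplasmic reticulum were lower for 5 of 17 genes and higher for 0 by the overlap description. Over all genes, 5.27% were lower by that description. The list's median of −0.12 was −0.35 without vehicle replicate 1 but 0.02 without vehicle replicate 2. It was −0.22 and −0.13 without flavopiridol replicates 1 and 2. Calr, encoding calreticulin, had 548 and 581 FPKM under vehicle and 441 and 401 FPKM under flavopiridol (−0.42 ± 0.22). Hsp90b1, encoding GRP94, had 229 and 244 FPKM against 183 and 194 FPKM (−0.32 ± 0.14). Hspa5, encoding the central chaperone BiP, overlapped at 120.3, 171, 125 and 117 FPKM. The count of lower genes was 4 after median-of-ratios scaling and 5 after quantile normalization, where 9.98% and 8.72% of all genes were lower. Nuclear-encoded oxidative phosphorylation genes had 43 of 49 estimates below 0 with a median of −0.08, against 0.09 for all genes. Of the 49, 12 did not overlap with flavopiridol lower, where 5.27% of all genes did. After median-of-ratios scaling 18 were lower and 0 higher, with a median of −0.21, where 9.98% of all genes were lower. After quantile normalization 4 were lower and 3 higher with a median of −0.01, so the lower count was near the 8.72% of all genes and the lean to lower was no longer seen. Examples were the complex I genes Ndufa2 (390, 322, 294 and 287 FPKM) and Ndufa6 (561, 500.4, 467 and 457 FPKM).

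**Figure D4:**
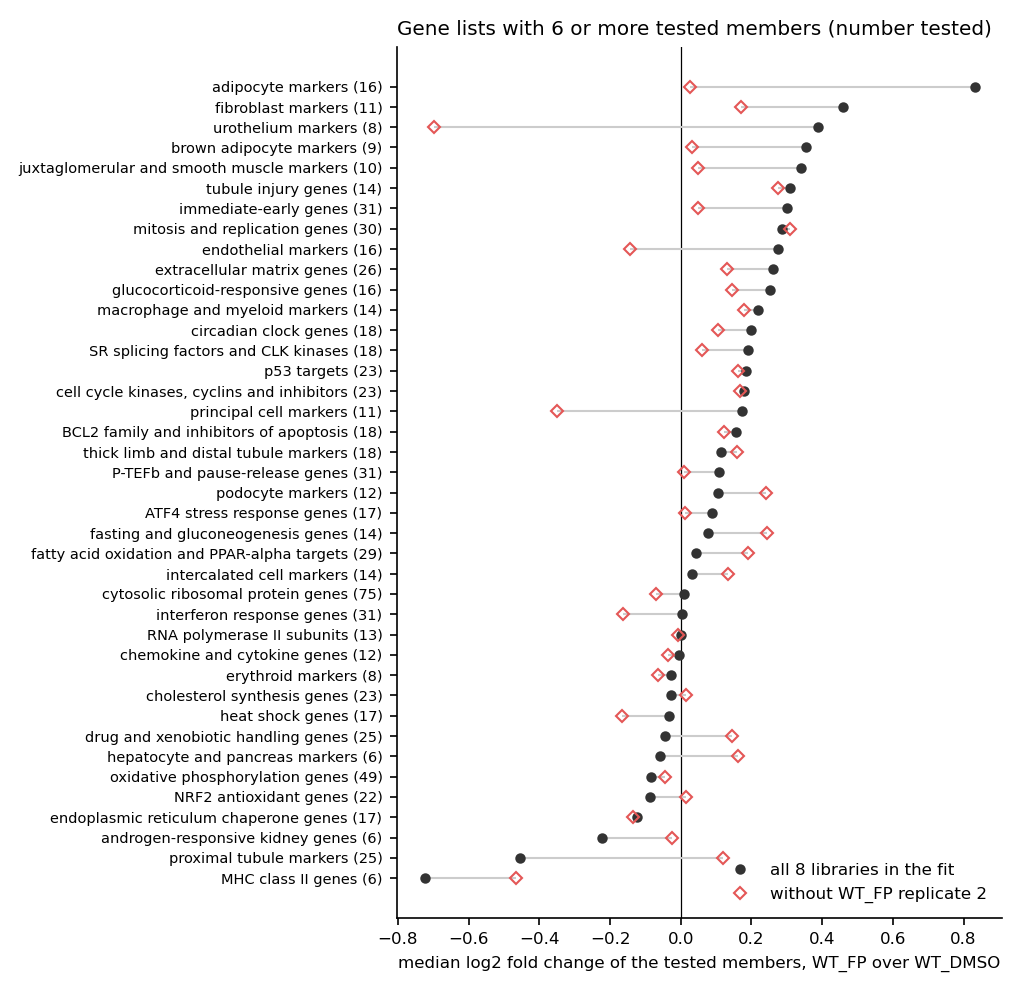
For each gene list with 6 or more tested members, filled circles give the median log2 fold change with all 8 libraries in the fit and open diamonds the median without flavopiridol replicate 2. Adipocyte markers (0.83 to 0.02), urothelium markers (0.39 to −0.70) and proximal tubule markers (−0.45 to 0.12) move most when that library is left out, and MHC class II genes stay lowest but for urothelium markers.

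Fat-tissue transcripts in flavopiridol replicate 2 are given separately, since among the wild-type libraries they were a feature of 1. In that library 30 entries were at least 4 times as high, in FPKM + 1, as in each of the other 3 wild-type libraries. The same count was 3 in vehicle replicate 1, 12 in vehicle replicate 2 and 7 in flavopiridol replicate 1. Of the 30, 23 were not short RNA entries and 12 belonged to the adipocyte or brown adipocyte lists, of which no member was among the entries of the other 3 libraries. Ucp1, the uncoupling protein of brown fat (chromosome 8, 83290348 to 83298456), was listed at 0.17, 0.40 and 0.68 FPKM in the other libraries and at 99.4 FPKM in flavopiridol replicate 2.

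Further genes of brown fat followed, with the lipid droplet regulator Cidea at 0.55, 0.63, 1.13 and 76.8 FPKM and the cytochrome oxidase isoform Cox8b at 0.80, 2.05, 1.48 and 169 FPKM. Genes shared by white and brown fat included the adipokine gene Adipoq (0.46, 0.25, 0.75 and 47.3 FPKM), the adipsin gene Cfd (3.27, 1.27, 2.44 and 230.3 FPKM) and the lipid droplet coat gene Plin1 (0.04, 0.06, 0.10 and 11.0 FPKM). Car3, a carbonic anhydrase abundant in fat, had 4.05, 3.90, 6.09 and 237 FPKM. The fatty acid binding gene Fabp4, which endothelium also expresses, had 281, 111, 181 and 1145 FPKM. The adipokine gene Retn had 0.24, 0.21, 0.22 and 32.8 FPKM. Leptin (Lep), the hormone of white fat, had 0, 0.02, 0 and 0.86 FPKM, low but also highest in flavopiridol replicate 2. In the polycystic kidneys with vehicle Lep had 0.12 and 0.08 FPKM. Brown-fat and shared fat genes were thus high in this wild-type library, and whether white fat was present was not tested.

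Summed over the 23 adipocyte markers, the libraries stood at 696, 609, 653 and 2676 FPKM, and 21 of the 23 were highest in flavopiridol replicate 2. The 14 brown adipocyte markers summed to 394, 331, 341 and 787 FPKM, with 11 of the 14 highest in that library. In the comparison of treatments the adipocyte list had a median of 0.83, and 0.02 without flavopiridol replicate 2, and the brown list 0.36 and 0.03. The large estimates of single fat genes had wide errors, as with Car3 at 3.05 ± 1.49. Pnpla2, the triglyceride lipase ATGL, had 57.2, 60.1, 70.1 and 126 FPKM (0.67 ± 0.26, unadjusted p under 0.05). Plin4, a lipid droplet coat gene, had 0.76, 0.75, 1.77 and 3.82 FPKM and passed the filter only through the flavopiridol libraries, so its estimate is not given. Fat transcripts were also present in the polycystic kidneys, where Adipoq had 4.59 and 7.40 FPKM with vehicle and 1.08 and 6.87 FPKM with flavopiridol. Polycystic values of Cfd were 41.5, 46.7, 3.78 and 35.4 FPKM. Those of the brown-fat genes Ucp1 (0.66, 0.27, 0.35 and 7.34 FPKM) and Cox8b (4, 3.41, 2.26 and 38.6 FPKM) were highest in polycystic flavopiridol replicate 2. For these genes the levels were below those of wild-type flavopiridol replicate 2.

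Flavopiridol replicate 2 stood apart for urothelium as well. All 8 urothelium markers were highest there, and their sum was 157, 101, 75.1 and 374 FPKM. Psca had 52.9, 31.2, 20.5 and 152 FPKM, and the uroplakin gene Upk2 had 13.5, 7.83, 5.61 and 32.6 FPKM. Without flavopiridol replicate 2 the median of this list turned from 0.39 to −0.70. Endothelial markers instead divided the libraries across treatments, with sums of 799 and 406 FPKM under vehicle and 476 and 889 FPKM under flavopiridol. Their median turned from 0.27 to −0.14 without flavopiridol replicate 2 and to −0.11 without vehicle replicate 2. Fibroblast markers were low in vehicle replicate 2, at 460, 176, 316 and 435 FPKM, and their median turned from 0.46 to −0.29 without it. Adrenal cortex and skeletal muscle markers summed to at most 8.79 and 6.55 FPKM in any wild-type library. The part of these tissue differences in the comparison of treatments was not tested.

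**Figure D5:**
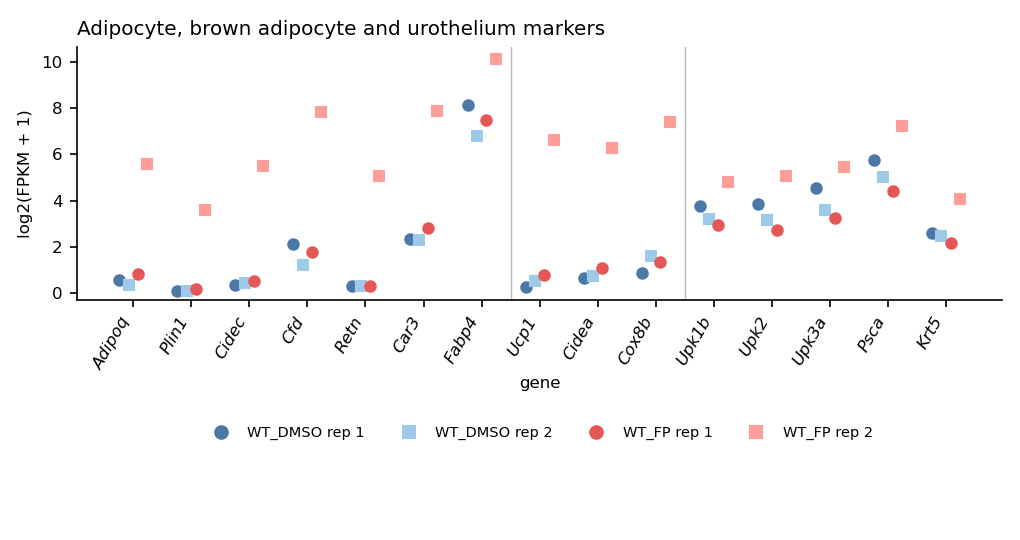
Points give log2(FPKM + 1) in the 4 wild-type libraries (blue, vehicle; red, flavopiridol; circles, replicate 1; squares, replicate 2) for adipocyte, brown adipocyte and urothelium markers. Flavopiridol replicate 2 is the highest library for every gene drawn, as for Ucp1 at 99.4 FPKM against at most 0.68 FPKM in the other 3.

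Entries for short RNAs led the ranking by p. They made up 181 of the 13559 tested entries, 26 of the 178 at unadjusted p under 0.05 and 7 of the 10 with the smallest p. Their values moved in steps, and for 18 of the 20 tested short RNA entries with the smallest p every library held a whole number of reads' worth, within 0.1. The 3 entries called without the filter are microRNA hairpins, of which Mir7049 and Mir421 are shown because a call rests on them. Capitals mark the mature arms that RefSeq lists.
Mir7049, chr7:28560925-28560984, minus strand: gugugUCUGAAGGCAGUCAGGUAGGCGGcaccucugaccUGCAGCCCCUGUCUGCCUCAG
Mir421, chrX:103572921-103572996, minus strand: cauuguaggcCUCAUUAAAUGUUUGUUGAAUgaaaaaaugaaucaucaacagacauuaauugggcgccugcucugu
Mir7049 was listed at 0, 0, 2.72 and 2.96 FPKM, which is 0, 0, 1 and 1 read's worth, and Mir421 at 1.75, 1.5, 0 and 0 FPKM, or 1, 1, 0 and 0 reads' worth. Mir6981, the remaining call, also rested on 1 read's worth in each vehicle library. Mature microRNAs lack a poly(A) tail, so these entries do not measure them.

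The responses of wild-type and polycystic kidney to the drug were compared in the same fit, through the interaction of genotype and drug. It called 0 genes (0%) at an adjusted p under 0.05 in limma, where the smallest adjusted p was 0.334, while 1529 genes (11.3%) had an unadjusted p under 0.05. Gsta1 was among the 5 named genes with the smallest p, with 72.4 and 45.4 FPKM in polycystic kidney with vehicle and 18.9 and 17.4 FPKM with flavopiridol. Its interaction of 3.38 ± 0.37 (adjusted p = 0.334) joined an estimate of 1.77 in wild-type and −1.61 in polycystic kidney. The adult beta-globin gene Hbb-bt had 80.2 and 87.3 FPKM against 104 and 117 FPKM in wild-type and 6.10 and 9.04 FPKM against 59.8 and 67.0 FPKM in polycystic kidney. For the alpha-globin gene Hba-a2 the wild-type values were 443 and 399.9 FPKM against 395 and 411 FPKM, and the polycystic values 51.0 and 64.5 FPKM against 213 and 250.5 FPKM. Gpam, a glycerolipid synthesis enzyme gene, had 4.04 and 5.30 FPKM against 7.30 and 6.46 FPKM in wild-type and 8.54 and 10.6 FPKM against 2.22 and 1.32 FPKM in polycystic kidney.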

How the data were processed

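FPKM values of 8 whole-kidney libraries were deposited, 1 table each. The file headers name no unit, and FPKM was inferred from the deposited values, which the authors gave to 2 decimals. The submitters' processing notes list Bowtie2, DESeq2 and mm10, giving neither versions nor what each was used for. RNA was extracted with TRIzol and oligo(dT)-selected, with libraries made by BGI, per the labels' protocols. Depth in reads is unknown, and intervals or floors from counts were not made.

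Of 20245 entries, 4 of duplicated symbols and 1 dash were left out. Genes with 1 FPKM or more in at least 2 wild-type libraries were kept (13559). limma 3.58.1 in R 4.3.3 was fitted on log2(FPKM + 1), so folds of low genes are understated. The fit had 4 group means over 8 libraries, trend and robust moderation, two-sided p and Benjamini-Hochberg adjustment. Intervals and SEs come from this fit and are not adjusted. The script was tested on simulated data. Relative depth came from the value steps of short RNA entries.

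Members, tests and the 45 gene lists were chosen with earlier results of these data known. The rule for named genes took a fixed set of P-TEFb, CDK, short-lived, fat and sex-linked genes. It added 15 genes per direction by smallest p, without overlap, with mean log2(FPKM + 1) of 2 or more in the higher group and not on the adipocyte lists. It further took up to 4 members per list, 5 interaction genes and 15 genes high in WT_FP replicate 2. Predicted genes and short RNAs were skipped, and 2 of the genes so named are not reported here. Other genes given, among them the copies, the short RNA entries, ribosomal RNA and list members that overlapped, were chosen after their values were seen. Lists are described by counts and medians without a test. Symbols were matched to RefSeq GRCm38.p6 (19398 of 20240). Alternatives were the wild-type libraries alone, other filters, a pseudocount of 0.1, median-of-ratios scaling, quantile normalization, a replicate block, no trend or robust moderation, and each wild-type library left out.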

Additional observations from a re-analysis of the deposited data

How the results depend on the processing

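The counts of called genes were 0 in both directions and for the interaction, and stayed at 0 with every alternative but the following. Without the filter on low values there were 1 higher, 2 lower and 7 for the interaction, and without trend or robust moderation 1 higher. With each wild-type library left out in turn the counts ranged from 0 to 0 for all 3 results. Where this left 1 library in an arm, that library was assumed to vary like the other groups. With the replicate number as a block the counts were 0, 0 and 0, and 134 genes had an unadjusted p under 0.05 against 178. The labels share replicate numbers only, and deviations of same-numbered wild-type libraries correlated at −0.55. A crossed replicate block, added after seeing the data, called 0 and had 555 genes at unadjusted p under 0.05. That number was 119 with the wild-type libraries alone, 100 with a filter at 5 FPKM, 442 without a filter, and 662, 207, 611 and 171 without vehicle replicates 1 and 2 and flavopiridol replicates 1 and 2. Of the 52 genes followed for the sign of their fold change, 49 kept it in all alternatives. Genes named because their treatments did not overlap could not change sign when a library was left out. For these genes that part of the count was fixed in advance. Cdk9 turned to −0.0653 (range over left-out libraries −0.0653 to 0.3193) and Mcl1 to −0.00754 (−0.00754 to 0.2845) without vehicle replicate 2, and Hexim1 to 0.0015 (−0.0832 to 0.0015) without flavopiridol replicate 1. The cause was not tested. Unknown depth limits genes near 1 FPKM most.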

Other observations

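Among clock genes, none of the 18 tested reached an unadjusted p of 0.05. Of 20 listed, 4 did not overlap with flavopiridol higher and 1 with flavopiridol lower, beside 15.9% and 5.65% of entries. Among the 18 tested the counts were 3 higher and 3 lower after median-of-ratios scaling, where 9.57% and 9.98% of all genes were. After quantile normalization they were 1 higher and 2 lower, where 10.2% and 8.72% of all genes were. Nfil3, a repressor of D-box genes, had 5.13 and 3.40 FPKM under vehicle and 6.67 and 5.44 FPKM under flavopiridol, while the D-box activator gene Dbp had 82.6 and 66.6 FPKM against 60.5 and 65.3 FPKM. The core clock genes Cry1 (5, 5.87, 6.88 and 6.64 FPKM) and Arntl (0.99, 1.48, 1.63 and 1.81 FPKM) were higher, and Per1 (36.8, 18.5, 30.7 and 32.5 FPKM) was low in vehicle replicate 2 alone. Metallothionein genes, which bind zinc and copper, were lowest in vehicle replicate 2, with Mt1 at 449, 239, 531 and 447 FPKM and Mt2 at 74.0, 31.6, 108 and 82.9 FPKM.

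Cytosolic ribosomal protein genes followed the scaling. Of 75 genes, 1 did not overlap in each direction as deposited, where 16.5% of all genes were higher and 5.27% lower. After median-of-ratios scaling 30 were lower, where 9.98% of all genes were. After quantile normalization 17 were higher, where 10.2% of all genes were. Their sum was 53644 and 44649 FPKM under vehicle and 45870 and 52523 FPKM under flavopiridol. SR splicing factor and CLK kinase genes summed to 1219 and 769 FPKM against 1026 and 1250 FPKM, and their median of 0.19 turned to −0.12 without vehicle replicate 2. Erdr1, a gene near the pseudoautosomal boundary whose reads map uncertainly, had 699 and 416 FPKM under vehicle and 137 and 304 FPKM under flavopiridol in wild-type kidney, and 131 and 153 FPKM against 436 and 738 FPKM in polycystic kidney. Tmem254c had 11.7, 10.2, 107 and 14.0 FPKM, high in flavopiridol replicate 1 alone.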
